A study of Mus musculus with 6 samples.

Results

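Macrophage transcripts in cultures of mouse pulmonary arterial smooth muscle cells (PASMCs) are described here through 32 genes that macrophages and other leukocytes express, chosen by name and matched to the deposited gene identifiers in the GENCODE annotation of mm10. All 32 genes were present among the 21785 deposited genes, and all 32 passed the filter of a mean of at least 1. The rule that picks them uses no measured value, but the members were chosen with earlier results of these data known. The cells were grown from lungs of C57BL/6 mice after iron-agarose was perfused through the pulmonary artery and iron-holding tissue was retained on a magnet. All 6 samples were then kept 48 h in medium without supplements. The control group (n = 3) received no ligand, and the stimulated group (n = 3) received bone morphogenetic protein 9 (BMP9) at 1 ng/mL together with BMP10 at 5 ng/mL for 6 h. Nothing in the labels ties a replicate to its own animal or culture; a p-value here therefore measures the spread among these 6 samples, which may be technical. In these bulk samples, fewer cells of a type and less RNA per cell cannot be told apart.

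Macrophages are phagocytes of the innate immune system. In the lung they line the airspaces as alveolar macrophages and sit in the tissue and around vessels as interstitial macrophages. Their identity depends on the transcription factor PU.1, and their survival on colony-stimulating factor 1 (CSF1) acting on its receptor. They take up particles and lipids through scavenger receptors, sense antibody-coated targets through Fc receptors and make most of the complement C1q of tissues.

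All values are normalized read counts, which sum to between 27295973 and 31903795 per library, with an estimated 23300000 to 54300000 reads behind them. Levels of different genes were compared only per kilobase of exon, in ppm, where the per-kilobase values of all genes in a library sum to 1000000. On that scale the 32 genes summed to 22440, 23589 and 13656 ppm in control replicates 1, 2 and 3 and to 27367, 18353 and 23068 ppm in stimulated replicates 1, 2 and 3. The groups overlapped, and the means were 19895 ± 5433 ppm in controls and 22929 ± 4509 ppm after stimulation (SD, n = 3). Lyz2 alone gave 11714 and 14082 ppm of these means, so the sums mostly follow that gene. Markers of the labelled cell type were present as well, though not all at a high level. The 14 smooth muscle genes summed to between 2380 and 3643 ppm in controls and between 5175 and 10627 ppm after stimulation, and Myh11, the myosin heavy chain of smooth muscle, did not go under 2154 in any library. Acta2 alone gave 1357 to 2285 ppm of this sum in controls and 3781 to 8343 ppm after stimulation. Myocd was at 20 to 66 and Pln at 1 to 14 over all libraries. The 14 fibroblast genes summed to between 9133 and 12805 ppm. Sums over lists depend on which genes were listed and are not cell fractions.

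The most abundant macrophage transcript was that of Lyz2, which encodes the bacteria-digesting lysozyme of myeloid cells. It was at 138253, 136319 and 81014 in control replicates 1, 2 and 3 and at 179899, 123461 and 162472 in the stimulated ones. That is between 0.288% and 0.584% of all normalized reads of a library. By level per kilobase it ranked 2 among all genes in both groups, at a mean of 11714 ppm in controls and 14082 ppm after stimulation. Control replicate 3 was lowest and stimulated replicate 1 highest, and the groups overlapped. The near-identical copy Lyz1 was at 68 to 189, and how reads shared by the copies were counted is not given in the sources used here. Lyz2 had a log2 change (stimulated minus control, on log2(value + 1), ± SE) of 0.41 ± 0.24, which did not pass limma (Benjamini-Hochberg adjusted p = 0.31).

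**Figure D1:**
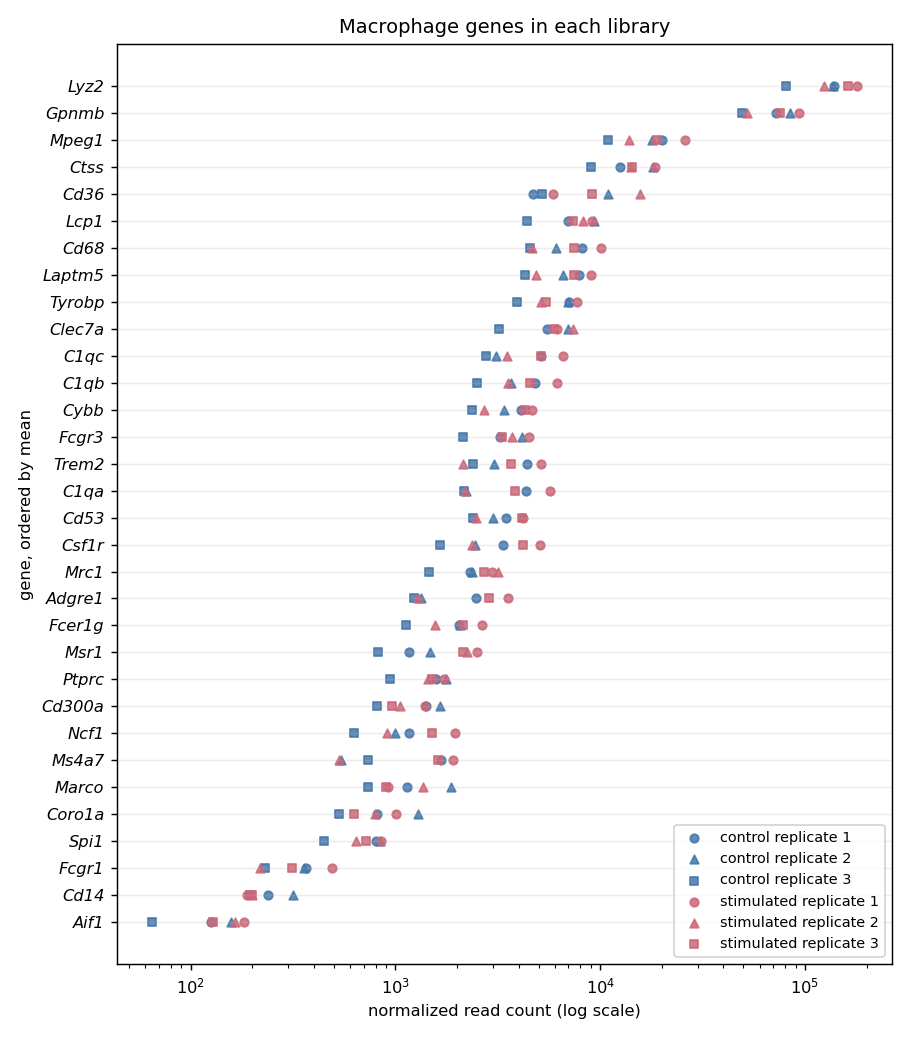
Normalized read count (log scale, x axis) of each of the 32 macrophage genes (y axis, ordered by mean) in 3 control libraries (blue) and 3 stimulated libraries (red), with 1 point per library. Control replicate 3 is the leftmost point for 27 genes and stimulated replicate 1 the rightmost for 23.

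Some libraries were lowest or highest for most of the genes. Control replicate 3 was the lowest of all 6 libraries for 27 of the 32 genes, and stimulated replicate 1 was the highest for 23. Within controls, replicate 3 was lowest for 30 genes, while replicates 1 and 2 were each highest for 16. Within stimulated samples, replicate 1 was highest for 27 genes and replicate 2 lowest for 21. Their geometric mean was 3131, 3050 and 1867 in control replicates 1, 2 and 3 and 3900, 2621 and 3194 in the stimulated ones, and their share of all normalized reads lay between 0.724% and 1.40%.

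Same-numbered libraries were also compared directly. In pair 1 the members were higher after stimulation for 29 genes and lower for 3, with a median log2 difference of 0.36. In pair 2 they were higher for 6 and lower for 26, with a median of -0.28. In pair 3 all 32 were higher, with a median of 0.80, and Cd14 had the smallest difference (0.04). With equal library totals these counts were 27, 3 and 31 genes higher and 5, 29 and 1 lower. Over all genes tested the medians were 0.00, -0.02 and 0.00. A rise in pairs 1 and 3 with a fall in pair 2 was shown by 23 of the 32 genes and by 6.8% of all genes tested. Another 6 genes were higher in every pair (Clec7a, Mrc1, Msr1, Cd36, C1qc and Aif1), against 27.2% of all genes tested, and no member was lower in every pair.

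**Figure D2:**
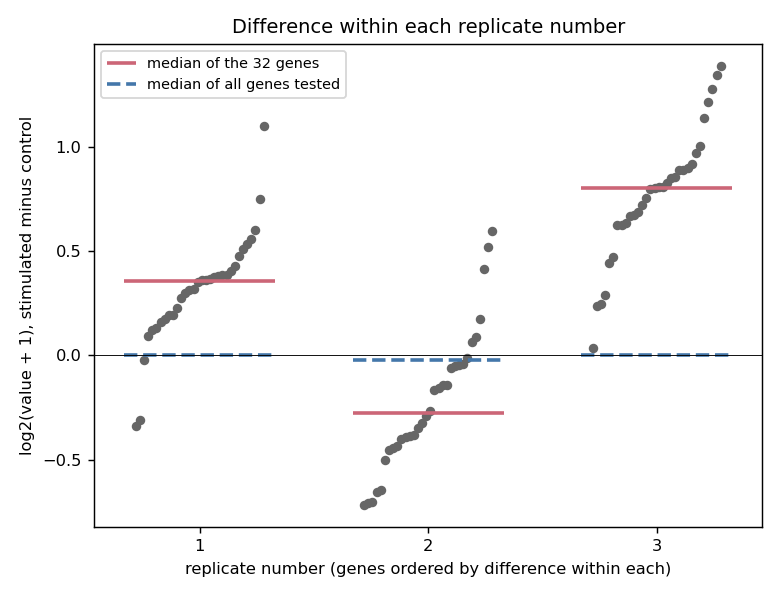
Difference in log2(value + 1), stimulated minus control (y axis), of each of the 32 macrophage genes within replicate numbers 1, 2 and 3 (x axis); each grey point is a gene, the red line the members' median and the dashed blue line the median of all genes tested. The members' median is 0.36 in pair 1, -0.28 in pair 2 and 0.80 in pair 3.

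With treatment as the only term, 1 of the 32 genes changed (3.12%), Msr1, which rose. Over all 21743 genes tested 13.4% changed, 8.61% upward and 4.75% downward. At an unadjusted p under 0.05 there were 2 members (Msr1 and Mrc1; 6.25%), against 28.7% of all genes. The groups did not overlap for the same 2 genes, against 33.2% of all genes. The fitted change was above 0 for 28 of 32, with a median of 0.29 on the log2 scale (22 of 32 with equal library totals), beside -0.03 for all genes. That median was 0.12 with equal library totals, which lowers the median of all genes to -0.20, and 0.04 without control replicate 3, 0.11 without stimulated replicate 1 and 0.47 without stimulated replicate 2. Dropping the replicate 2 libraries of both groups gave 0.56. With the replicate number as a block, 4 of the 32 genes rose (12.5%; Msr1, Cd36, Mrc1 and C1qc) and none fell, while 26.8% of all genes changed and 14.9% rose.

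**Figure D3:**
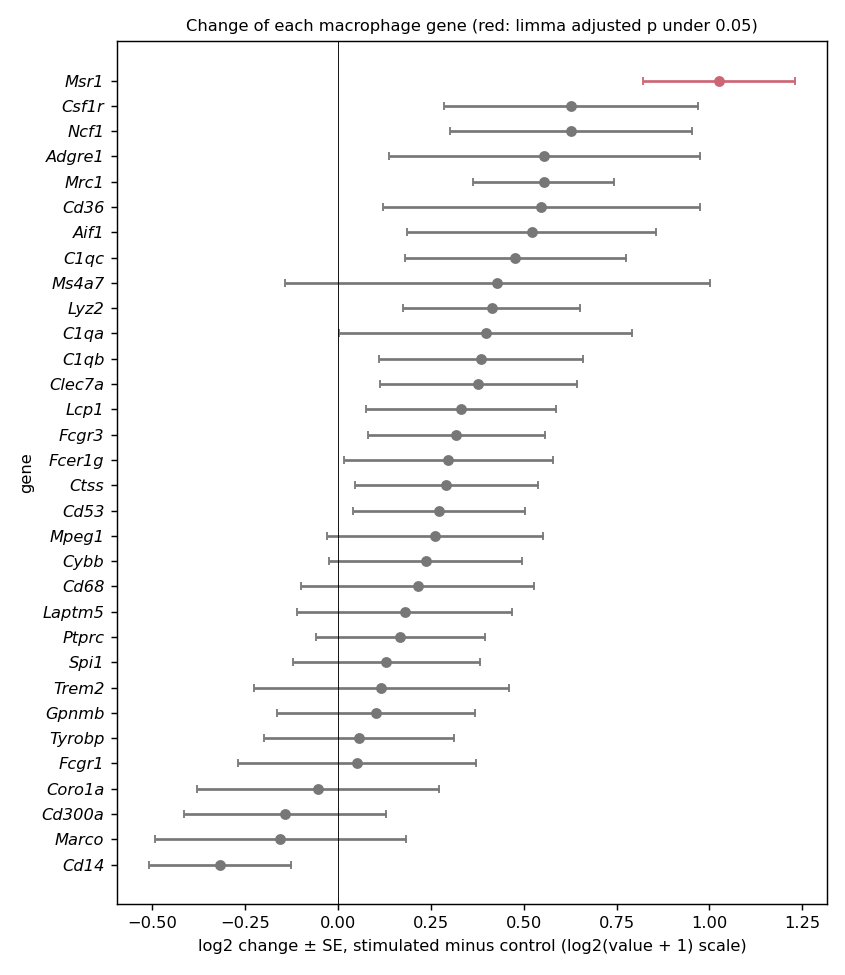
Log2 change, stimulated minus control on the log2(value + 1) scale (x axis), with its SE as a bar, for each of the 32 macrophage genes (y axis, ordered by change) from limma on 3 against 3 libraries. Msr1, in red, is the gene with an adjusted p under 0.05, at 1.03 ± 0.21; the other 31 lie between -0.32 (Cd14) and 0.63.

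Promoter stretches of 5 members, picked by name and not at random, are shown as examples of the sequence before their starts. They were searched for GAGGAA, the core letters of the purine-rich sites that PU.1 is known to bind, and the part of PU.1 in the levels was not tested. The sequences come from RefSeq (GRCm38.p6, the assembly of mm10), run 5′ to 3′ on the gene's strand and end before the first annotated exon. Capitals mark GAGGAA or, for a match on the other strand, TTCCTC. The C1q gene C1qb (chr4:136886201-136886450, minus strand), the protease gene Ctss (chr3:95526536-95526785, plus strand) and the phagosome gene Cd68 (chr11:69666171-69666420, minus strand) each held 1 match, Mrc1 (chr2:14229164-14229391, plus strand) held 3, and Lyz2 (chr10:117282322-117282522, minus strand) held 0.
C1qb: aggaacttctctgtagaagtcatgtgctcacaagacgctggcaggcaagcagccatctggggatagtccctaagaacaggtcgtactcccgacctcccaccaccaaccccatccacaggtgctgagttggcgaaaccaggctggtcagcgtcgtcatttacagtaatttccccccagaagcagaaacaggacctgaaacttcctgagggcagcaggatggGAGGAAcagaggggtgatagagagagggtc
Ctss: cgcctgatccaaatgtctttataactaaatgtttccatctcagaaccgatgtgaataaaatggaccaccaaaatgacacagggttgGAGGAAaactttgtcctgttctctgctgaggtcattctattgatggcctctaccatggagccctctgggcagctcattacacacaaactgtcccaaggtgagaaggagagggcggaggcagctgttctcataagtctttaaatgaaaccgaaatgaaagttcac
Cd68: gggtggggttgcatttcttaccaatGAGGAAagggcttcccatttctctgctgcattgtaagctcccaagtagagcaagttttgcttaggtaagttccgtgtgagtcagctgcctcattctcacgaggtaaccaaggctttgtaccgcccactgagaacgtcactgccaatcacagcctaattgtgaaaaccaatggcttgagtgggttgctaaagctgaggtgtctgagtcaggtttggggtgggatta
Mrc1: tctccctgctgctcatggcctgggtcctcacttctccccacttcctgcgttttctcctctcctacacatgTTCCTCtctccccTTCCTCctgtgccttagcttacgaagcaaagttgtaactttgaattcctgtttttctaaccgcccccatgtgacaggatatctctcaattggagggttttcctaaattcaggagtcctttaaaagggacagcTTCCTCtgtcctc
Lyz2: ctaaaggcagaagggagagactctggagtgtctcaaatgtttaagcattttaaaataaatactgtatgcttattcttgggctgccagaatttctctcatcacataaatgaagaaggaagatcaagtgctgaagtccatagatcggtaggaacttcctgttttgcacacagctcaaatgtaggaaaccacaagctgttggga
Entries of the promoter table, each 300 bases long from 250 before to 50 after a start, were found for 25 of the 32 members. Of their 31 promoters, 19 held GAGGAA on either strand (61.3%), against 28.3% of all 32851 promoters. By gene, 17 of the 25 had a match in at least 1 promoter. Spi1, Csf1r, Msr1 and C1qa were among the members without an entry. A match is a description of these letters, not a binding site.

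Scavenger and pattern receptors held the gene that changed. Msr1, scavenger receptor A, which takes up modified lipoproteins and bacteria, was at 1169, 1476 and 819 in control replicates 1, 2 and 3 and at 2500, 2229 and 2142 in the stimulated ones. Each stimulated library was above each control, and the means were 1155 ± 329 and 2290 ± 187 (SD, n = 3). The gene lies on chromosome 8 from 39581685 to 39642673 (mm10, minus strand). It rose by 1.03 ± 0.21 on the log2 scale (limma adjusted p = 0.0208; 0.00323 with the replicate block), by 1.10 in pair 1, 0.59 in pair 2 and 1.39 in pair 3. In limma fits that left out 1 library, it no longer passed without control replicate 1 (adjusted p = 0.0696) and without any of stimulated replicates 1 to 3 (0.062, 0.052 and 0.0813 in that order), with changes of 0.96 to 1.07. It also missed without an intensity trend (0.0636) and passed with equal library totals (0.85, adjusted p = 0.0411).

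Mrc1, the mannose receptor CD206, was at 2320, 2371 and 1466 in controls and at 2976, 3157 and 2716 after stimulation. The groups did not overlap, but the change of 0.55 ± 0.19 did not pass limma (adjusted p = 0.104). It passed with the replicate block (adjusted p = 0.0126). Cd36, a receptor for lipids and thrombospondin that endothelial cells also make, was at 4716, 10919 and 5210 in controls and at 5871, 15664 and 9110 after stimulation. Replicate 2 was highest in each group, as it was for all 15 endothelial genes, and the part of these in the level of Cd36 was not tested. Its change was 0.55 ± 0.43 (limma adjusted p = 0.456; 0.008 with the replicate block).

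Cd68, a glycoprotein of late endosomes, was at 8149, 6097 and 4531 in controls and at 10123, 4647 and 7473 after stimulation. Marco, a collagen-like scavenger receptor typical of alveolar macrophages, was at 1137, 1866 and 734 in controls and at 917, 1370 and 897 after stimulation. Cd14, the co-receptor for bacterial lipopolysaccharide, was at 239, 315 and 195 in controls and at 189, 200 and 200 after stimulation. Groups overlapped for all of these. Their changes were 0.21 ± 0.31, -0.16 ± 0.34 and -0.32 ± 0.19, and none passed limma (adjusted p = 0.708, 0.809 and 0.327).

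The regulators of the lineage did not pass the test. Spi1, which encodes PU.1, was at 801, 844 and 448 in controls and at 854, 645 and 721 after stimulation (0.13 ± 0.25, limma adjusted p = 0.782). Csf1r, the CSF1 receptor, was at 3357, 2458 and 1658 in controls and at 5085, 2356 and 4210 after stimulation (0.63 ± 0.34, limma adjusted p = 0.281). Both overlapped between groups. Of the exonic bases of Csf1r, 15.1% lie opposite exons of Hmgxb3, so its level is uncertain where counting ignored strand.

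The ligands of that receptor changed in opposite directions. Csf1 was at 15912, 13036 and 17006 in controls and at 60559, 54898 and 56707 after stimulation, and it rose by 1.91 ± 0.11 (limma adjusted p = 0.000362). Il34, the alternative ligand, was at 299, 295 and 318 in controls and at 127, 184 and 157 after stimulation, and it fell by 0.97 ± 0.17 (limma adjusted p = 0.0121). The groups did not overlap for either gene. The call of Csf1 held in each alternative run, while Il34 no longer passed limma when control replicate 1, control replicate 3 or stimulated replicate 3 was left out (adjusted p = 0.0534, 0.0589 and 0.0613). Csf2, a growth factor of alveolar macrophages, was at 10 or less in each library. Of the 9 genes listed for colony-stimulating factors and their receptors, 1 rose, 1 fell and 7 did not pass, with a median log2 change of 0.45. Over all genes tested 13.4% changed.

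**Figure D4:**
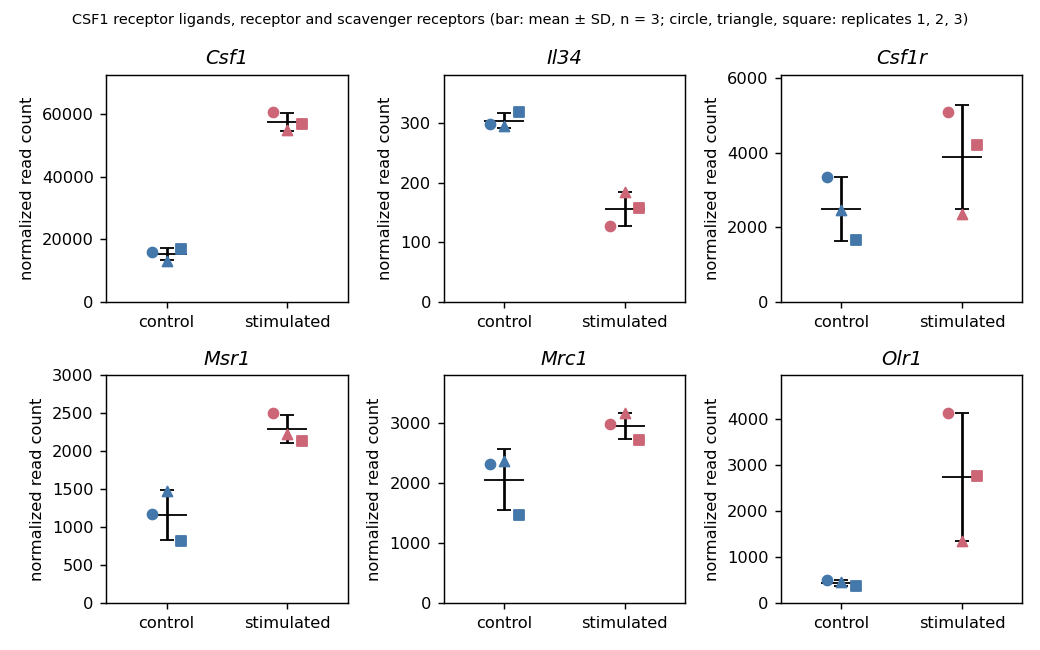
Normalized read count (y axis, from 0) of Csf1, Il34, Csf1r, Msr1, Mrc1 and Olr1 in control (blue) and stimulated (red) libraries; circles, triangles and squares are replicates 1, 2 and 3, and bars give mean ± SD (n = 3). The groups are apart for all of these except Csf1r, where stimulated replicate 2 (2356) lies below control replicates 1 and 2.

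Genes shared by leukocytes were detected in each library. Ptprc, the phosphatase CD45 on nucleated blood-derived cells, was at 1582, 1760 and 944 in controls and at 1722, 1441 and 1503 after stimulation. Cd53, a tetraspanin, was at 3463, 2990 and 2387 in controls and at 4187, 2489 and 4174 after stimulation. Laptm5, a lysosomal membrane protein of blood cells, was at 7920, 6615 and 4300 in controls and at 9056, 4840 and 7467 after stimulation. These genes share the low value in control replicate 3. Coro1a, an actin regulator of leukocytes, was at 817, 1293 and 530 in controls and at 1005, 791 and 629 after stimulation. Lcp1, the actin bundler L-plastin, was at 6925, 9282 and 4379 in controls and at 9167, 8268 and 7393 after stimulation. None of the 5 passed limma, and their changes ran from -0.05 (Coro1a) to 0.33 (Lcp1), with adjusted p-values of 0.45 or above.

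Adaptors with immunoreceptor activation motifs (ITAMs) and the receptors around them held 7 members, of which none passed the test. Tyrobp, the adaptor DAP12, was at 7037, 6926 and 3945 in controls and at 7712, 5133 and 5461 after stimulation. Fcer1g, the common Fc receptor gamma chain, was at 2042, 2070 and 1129 in controls and at 2648, 1566 and 2135 after stimulation. Trem2, a lipid sensor that signals through DAP12, was at 4388, 3030 and 2387 in controls and at 5137, 2142 and 3674 after stimulation. All 3 were at a lower level in stimulated replicate 2 than in control replicate 2. Fcgr1, the high-affinity receptor for IgG, was at 365, 357 and 230 in controls and at 491, 217 and 313 after stimulation. Fcgr3, a low-affinity IgG receptor, was at 3224, 4130 and 2139 in controls and at 4480, 3711 and 3319 after stimulation. The IgG receptor genes are alike in sequence, so shared reads make these levels uncertain. Clec7a, the beta-glucan receptor dectin-1, was at 5511, 6942 and 3216 in controls and at 6150, 7386 and 5948 after stimulation. Cd300a, an inhibitory receptor, was at 1418, 1648 and 817 in controls and at 1398, 1054 and 962 after stimulation. Changes ran from -0.14 ± 0.27 (Cd300a) to 0.38 ± 0.27 (Clec7a), with limma adjusted p-values of 0.405 or above.

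The complement C1q chains, which assemble into the molecule that starts the classical complement pathway, lie side by side on chromosome 4. C1qa was at 4337, 2206 and 2175 in controls and at 5658, 2184 and 3850 after stimulation. C1qb was at 4815, 3677 and 2511 in controls and at 6146, 3564 and 4527 after stimulation. C1qc was at 5153, 3102 and 2755 in controls and at 6613, 3505 and 5130 after stimulation. All 3 chains were highest in replicate 1 of each group. Their changes were 0.40 ± 0.40, 0.39 ± 0.28 and 0.48 ± 0.30, and none passed limma (adjusted p = 0.564, 0.412 and 0.344). With the replicate block C1qc passed limma (adjusted p = 0.0398), and it did not with equal library totals beside the block.

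Lysosomal and killing genes were among the most abundant members and did not pass the test. Gpnmb, a glycoprotein of lysosomes that cells other than macrophages can also make, was at 71794, 84532 and 49186 in controls and at 93835, 51933 and 75723 after stimulation. Ctss, the protease cathepsin S, was at 12559, 18077 and 8990 in controls and at 18485, 14190 and 14280 after stimulation. Mpeg1, the pore-forming protein perforin-2, was at 20097, 17905 and 10895 in controls and at 25854, 13765 and 18980 after stimulation. Per kilobase, Gpnmb, Ctss and Tyrobp ranked next to Lyz2 among members in both groups, with control means of 1370, 1270 and 1164 ppm, and their order changed after stimulation (1353, 1376 and 1093 ppm). The differences among these 3 were within their spread. Changes were 0.10 ± 0.27 for Gpnmb, 0.29 ± 0.25 for Ctss and 0.26 ± 0.29 for Mpeg1 (limma adjusted p = 0.844, 0.495 and 0.611).

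The phagocyte NADPH oxidase makes superoxide in phagosomes. Cybb, its membrane subunit, was at 4092, 3384 and 2374 in controls and at 4621, 2707 and 4292 after stimulation. Ncf1, the cytosolic organizer p47phox, was at 1159, 1001 and 627 in controls and at 1951, 906 and 1517 after stimulation. Neither passed limma (0.24 ± 0.26, adjusted p = 0.607, and 0.63 ± 0.33, adjusted p = 0.26). For Ncf1, 11.1% of exonic bases lie opposite exons of Gtf2ird2.

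Of the remaining markers, Adgre1, which encodes the macrophage antigen F4/80, was at 2486, 1335 and 1237 in controls and at 3537, 1287 and 2866 after stimulation. Aif1, the calcium-binding protein IBA1, was the lowest member, at 126, 157 and 65 in controls and at 183, 164 and 128 after stimulation. Ms4a7, a membrane protein of tissue macrophages, was at 1669, 545 and 731 in controls and at 1907, 530 and 1608 after stimulation. Stimulated replicate 2 was below stimulated replicates 1 and 3 for Adgre1 and Ms4a7, and between them for Aif1. None passed limma (adjusted p = 0.438, 0.363 and 0.677).

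To look at members apart from the shared rise and fall, each gene was divided in each library by the geometric mean of the other 31, an alternative chosen after the values were seen. For 5 of the 32 genes (15.6%) the groups then did not overlap, against 20.4% of all genes scaled on the 32. Msr1 had ratios of 0.362, 0.473 and 0.427 in controls and of 0.632, 0.846 and 0.662 after stimulation. Lyz2, also among the 5, had ratios of 49.9, 50.5 and 49.0 in controls and 52.2, 53.3 and 57.8 after stimulation. Its mean ratio was thus slightly higher after stimulation, by 1.09-fold. Tyrobp, Cd300a and Cd14 had lower ratios after stimulation. For Tyrobp they were 2.31, 2.33 and 2.16 in controls and 2.02, 2.00 and 1.74 after stimulation, and for Cd300a 0.442, 0.530 and 0.426 and then 0.347, 0.391 and 0.290. With the whole table scaled on the 32 genes, limma called 0 of the 32 (0 at an unadjusted p under 0.05) and 4.39% of all genes. With the replicate block added to this scaling limma called 0 of the 32 and 7.35% of all genes, and Msr1 had a change of 0.74 ± 0.39 (adjusted p = 0.281). Such scaling centres the members near 0 (median log2 change 0.0039 without the block). Their SEs without the block were alike, from 0.37 (Gpnmb) to 0.43 (Aif1), although their ratios differed in spread. The 0 calls therefore cannot decide whether a member changed relative to the others.

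Relative levels differed by replicate number. Ms4a7 had ratios of 0.522, 0.169 and 0.38 in control replicates 1, 2 and 3 and of 0.478, 0.192 and 0.493 in the stimulated ones, so replicate 2 was lowest in each group. Adgre1 and C1qa were likewise lowest in replicate 2. Marco had ratios of 0.352, 0.602 and 0.381 in controls and 0.224, 0.512 and 0.270 after stimulation, and Cd36 of 1.53, 3.73 and 2.88 and of 1.53, 6.33 and 2.95, highest in replicate 2 of each group.

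**Figure D5:**
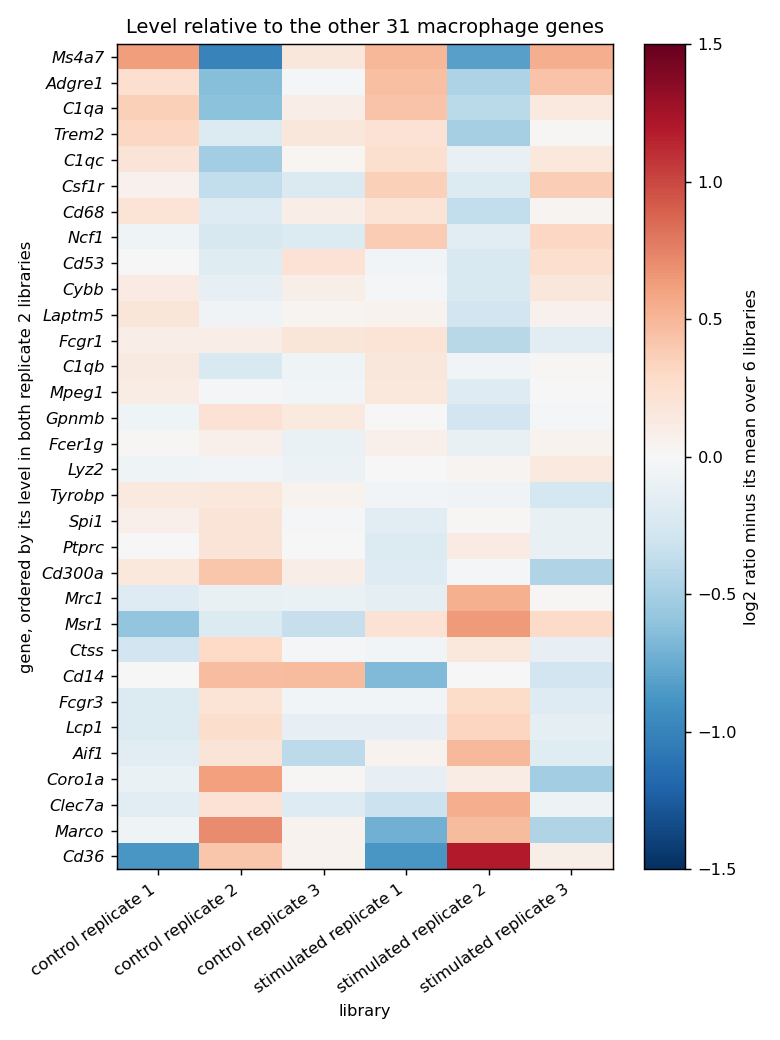
Level of each macrophage gene (rows, ordered by its level in the replicate 2 libraries) relative to the geometric mean of the other 31 genes, in each of 6 libraries (columns); colour gives the log2 ratio minus its mean over the libraries. Ms4a7, Adgre1 and C1qa are low, and Marco and Cd36 high, in both replicate 2 libraries.

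Genes typical of alveolar macrophages were, like Marco and Cd36, high in replicate 2. In controls all 17 genes of that list were higher in replicate 2 than the mean of replicates 1 and 3 (median 2.55-fold), and after stimulation 13 of 17 (median 2.50-fold). Chil3, the secreted chitinase-like protein Ym1, was at 504, 5187 and 766 in controls and at 454, 7042 and 2085 after stimulation. Siglecf, the surface lectin used to mark alveolar macrophages, was at 97, 233 and 86 in controls and at 132, 313 and 112 after stimulation. Chil3 and Siglecf were chosen after their values were seen. For the 32 members the corresponding medians were 1.26-fold in controls (25 of 32 higher) and 0.695-fold after stimulation (6 of 32 higher). All 15 endothelial genes were also higher in replicate 2 of each group (median 3.69-fold and 3.60-fold), as were 13 and 12 of 14 genes of lung epithelium. So were 8 and 7 of 8 dendritic cell genes (median 1.98-fold and 1.99-fold) and 13 and 11 of 14 monocyte genes. For antigen presentation by MHC class II it was 9 of 11 genes in each group. The interstitial and resident macrophage list had 8 and 4 of 16 higher.

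Of the 17 alveolar macrophage genes 1 rose and none fell (2 and 0 with the replicate block). For this and the next lists, the share of all genes that changed was 13.4%, and 26.8% with the replicate block. Olr1, the oxidized lipoprotein receptor LOX-1, which vascular cells can also make, was at 504, 447 and 373 in controls and at 4113, 1336 and 2755 after stimulation. It rose by 2.50 ± 0.38 (limma adjusted p = 0.00801), a call lost without stimulated replicate 3 (0.0516). None of the 16 genes of interstitial and resident macrophages that were present passed, with a median log2 change of 0.19. With the replicate block 1 of the 16 rose and 3 fell, with Lyve1 and Mgl2 among the falls (limma adjusted p = 0.00541 and 0.0239). The most abundant of the 16 per kilobase were Apoe, a lipid carrier (38545 ± 8831 in controls, 44946 ± 17785 after stimulation), and Gas6, which bridges dying cells to phagocyte receptors (8132 ± 1754 and 9806 ± 1182). Levels on this list were uneven. Cd163 and Timd4, which mark some resident macrophages, were at 8 or less in each library, while Lyve1 was at 164 to 1437 and Mgl2 at 156 to 420. Levels on the monocyte list were uneven. Ly6c2 and Ccr2, markers of classical monocytes, were at 1 to 48, while Plac8 was at 506 to 1613, Fcgr4 at 390 to 881, Itgam at 196 to 493 and Ace, which endothelial cells also make, at 3015 to 4943. For Itgam, 68.7% of exonic bases overlap exons of Gm49368 on the same strand, so its level is uncertain. Of 14 monocyte genes present, 1 rose, Vcan, a matrix proteoglycan that mesenchymal cells also make (5311 ± 850 to 7899 ± 755, limma adjusted p = 0.0333), a call lost by limma with equal library totals (0.0933), without an intensity trend (0.0934), without both replicate 2 libraries (0.0528) and without each library other than control replicate 2 (0.0577 to 0.131). Plac8 and Ace fell with the replicate block (limma adjusted p = 0.0166 and 0.0138).

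Genes of macrophage activation had 2 rises and no fall among 18, where 13.4% of all genes changed. In the blocked fit there were 4 rises and 2 falls, where 26.8% of all genes changed. Ptgs2, the prostaglandin synthase COX-2, rose from 2662 ± 190 to 12783 ± 3535 (limma adjusted p = 0.00152), and Tlr2, a sensor of bacterial lipopeptides, from 459 ± 27.6 to 801 ± 113 (limma adjusted p = 0.0107). Other cells also make these transcripts, and the cell of origin was not measured. Tlr2 no longer passed limma when control replicate 3 or stimulated replicate 3 was left out (adjusted p = 0.0541 and 0.0573). Nos2, the inducible nitric oxide synthase, was at 79, 459 and 116 in controls and at 13, 96 and 33 after stimulation. It was lower in every pair but overlapped between groups, and it fell with the replicate block (limma adjusted p = 0.000787; 0.146 without it). Among 11 genes of antigen presentation by MHC class II none passed (1 rose with the replicate block, Cd40, limma adjusted p = 0.000539). The most abundant per kilobase were Ctsh, cathepsin H (3747 ± 1930 and 4150 ± 1003), and Cd74, the invariant chain (661 ± 429 and 623 ± 424).

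None of the 20 genes of phagocyte lysosomes and lipid handling passed the test (median log2 change -0.01). Psap, a precursor of lipid-degrading cofactors, was at 142338 ± 20697 in controls and 132380 ± 29326 after stimulation, and Ctsd, cathepsin D, at 118236 ± 20820 and 125747 ± 41016. Fibroblasts and muscle cells also make these proteins. For Ctsd, 34.4% of exonic bases overlap exons of Gm49369 on the same strand. Of 10 genes of osteoclasts and multinucleated macrophages, 2 rose and none fell, where 13.4% of all genes changed. The block gave 3 rises and 2 falls, where 26.8% of all genes changed. The summed level of the 10 was lower after stimulation. It was 2095.5, 1877.2 and 1928.6 ppm in control replicates 1, 2 and 3 and 1671.6, 1138.3 and 1367.5 ppm in the stimulated ones. Nfatc1, a calcium-dependent transcription factor, rose from 768 ± 77.6 to 1654 ± 112 (limma adjusted p = 0.00175), and the integrin gene Itgb3 from 1766 ± 254 to 2712 ± 251 (limma adjusted p = 0.0214). Itgb3 no longer passed limma with equal library totals (adjusted p = 0.0584), without an intensity trend (0.0691), or in 4 of the fits on 5 libraries, those lacking control replicate 1 or 3 (0.0861 and 0.0851) or stimulated replicate 2 or 3 (0.0593 and 0.1). Dcstamp and Ocstamp, which macrophages need to fuse, were at 20 or less in each library.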

How the data were processed

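Per the labels' protocols, the libraries were stranded and made from total RNA. The submitters' processing notes name the aligner STAR 2.6.1d, the counter featureCounts 1.6.3, Trimmomatic 0.38, FastQC and DESeq2 1.18.1, and list hg38 and GRCh38 beside mm10. Which annotation they counted on, and with which strand setting, is not given in the sources used here. Each deposited value is a score: judged by the values, a read count that the authors scaled by 1 factor per library and rounded. Factors estimated from skipped or doubled whole numbers ran from 0.584 to 1.32, least certain for control replicate 2. Because a factor under 1 merges counts, reads were not recovered and no count model was used.

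Of 21785 identifiers, 21747 matched GENCODE M21. limma 3.58.1 (R 4.3.3, intensity trend) was run on log2(value + 1) for 21743 genes (mean 1 or higher), treatment as the only term, with Benjamini-Hochberg adjustment over all of them at 0.05. Such changes understate those of low genes. TMM and RLE factors were computed in base R. The labels number replicates 1 to 3 in each group. Libraries of the same number deviated together from their group means (correlations of 0.747, 0.741 and 0.218 across 13185 genes at a mean of 50 or higher), and were treated as pairs; control replicate 3 correlated more with stimulated replicate 1 (0.287). In simulated data for this comparison (21682 genes run, 200 of them changed, each with a mean of at least 200), the share called was 83% for log2 changes of 1 and 100% for log2 changes of 2, with 5 calls among unchanged genes. The simulated counts had a negative binomial dispersion of 0.03 for every gene and no effect of replicate number. Fitted SEs of the members ran from 0.19 (Mrc1) to 0.57 (Ms4a7), so these shares need not hold for them.

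Members and lists were chosen with earlier results of these data known. Every member is named; of each other list, up to 3 genes past the threshold with the smallest p are named, or else the 2 highest per kilobase, and Csf1, Il34 and Csf2 always. Other genes named outside members (Myh11, Myocd, Pln, Lyz1, Chil3, Siglecf, Cd163, Timd4, Dcstamp, Ocstamp, S100a9, the monocyte genes other than Vcan, the Cd3 genes, and those named for a call with the replicate block alone) were chosen after their values were seen. Some genes of the interstitial macrophage list are not reported here. Smooth muscle, fibroblast and endothelial genes so chosen are in the closing section.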

Additional observations from a re-analysis of the deposited data

How the results depend on the processing

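Of the 32 macrophage genes, limma called 1 (Msr1) with each other pseudocount and filter, with equal totals, upper-quartile, TMM and RLE scaling, with limma-voom and without both replicate 2 libraries, 0 with no intensity trend, 4 with the replicate block, 3 with the block and equal library totals (Msr1, Mrc1 and Cd36) and 0 with scaling on the macrophage genes themselves, all 32 or 26 of them. Over all genes limma called 2905, beside 1610 with no trend, 5837 with the replicate block and 6958 with the block and equal totals. Of the calls, 64.5% were rises; equal totals brought this to 33.4% and upper-quartile factors to 51.2%. When 1 library was left out, calls ranged from 917 to 2384 over all genes and from 0 to 1 among members, the members' median change from 0.04 to 0.47, and the ratio of summed levels from 0.996 to 1.27. For members scaled on one another, calls ranged from 0 to 0. Scaling on the macrophage genes centres their changes near 0, so these calls cannot decide whether a member changed relative to the others.

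Directions that turned belong to genes that limma did not call in either setting, and the cause was not tested. With equal library totals, alone or with the replicate block, the changes were -0.043 for Spi1, -0.0051 for Ptprc, -0.12 for Tyrobp, -0.0569 for Trem2, -0.12 for Fcgr1, -0.0714 for Gpnmb, -0.0142 for Apoe, -0.13 for Ctsd and -0.0502 for Itgax. Upper-quartile factors gave -0.0232 for Tyrobp, -0.0279 for Fcgr1 and -0.0314 for Ctsd. Without both replicate 2 libraries they were 0.27 for Coro1a, 0.11 for Cd300a and 0.0238 for Psap. Without 1 library each, changes ranged from -0.16 to 0.29 for Spi1, -0.11 to 0.34 for Ptprc, -0.0708 to 0.43 for Laptm5, -0.37 to 0.27 for Coro1a, -0.22 to 0.20 for Tyrobp, -0.17 to 0.46 for Trem2, -0.25 to 0.33 for Fcgr1, -0.44 to 0.0616 for Cd300a, -0.0458 to 0.52 for Cd68, -0.48 to 0.19 for Marco, -0.005 to 0.49 for Mpeg1, -0.12 to 0.33 for Gpnmb, -0.33 to 2.20 for Sftpc, -0.11 to 0.51 for Apoe, -0.0078 to 0.63 for Ctsh, -0.63 to 0.39 for Cd74, -0.18 to 0.31 for Ctsd, -0.27 to 0.0558 for Psap, -0.11 to 0.67 for S100a8, -0.23 to 0.38 for Itgax, -2.43 to 0.0742 for Jchain and -0.25 to 1.36 for Mcpt8.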

Other observations

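Listed genes of other leukocytes had lower sums. The 12 T and NK cell genes present summed to 19.6 to 47.2 ppm per kilobase over the 6 libraries, the 8 B cell genes to 4.38 to 21.8 ppm and the 8 dendritic cell genes to 44.9 to 104 ppm, against 13656 to 27367 ppm for the 32 macrophage genes. Lyz2 alone gave 7991 to 16427 ppm of the macrophage sum. Itgax, which is also on the alveolar macrophage list, gave 36.6 to 86.9 ppm of the dendritic cell sum. None of the T and NK, B and dendritic cell lists held a change by limma, with or without the replicate block. The T cell receptor chain genes Cd3e, Cd3d and Cd3g were at 0 to 14 in each library (chosen after their values were seen). The most abundant listed genes per kilobase were Il7r (608 ± 251 in controls, 715 ± 154 after stimulation) and Cd4 (138 ± 31.1 and 87.0 ± 42.8), Ighm (83.3 ± 11.5 and 48.7 ± 30.6) and Jchain (79.7 ± 98.3 and 30.7 ± 39.5), and Itgax (2334 ± 901 and 2427 ± 441) and Zbtb46 (234 ± 44.2 and 193 ± 67.7).

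Neutrophil genes were led by Mmp8, a collagenase, at 3749, 10882 and 6659 in controls and 5715, 15492 and 9806 after stimulation (limma adjusted p = 0.485; 0.00122 with the replicate block), while the neutrophil calprotectin genes were low or uneven. S100a8 was at 114 ± 57.5 and 136 ± 62.1, and S100a9 was at 0, 330 and 15 in controls and 0, 1 and 0 after stimulation. Of 9 genes listed for mast cells 3 were present. Among these, Kit was at 444, 2545 and 771 and at 184, 1255 and 442 (limma adjusted p = 0.47, and 0.0011 with the replicate block), and Mcpt8 at 98.0 ± 88.4 and 116 ± 56.9. Kit was highest in replicate 2 of each group, as all 15 endothelial genes were, and the part of endothelial cells in its level was not tested. Among 5 erythroid and platelet genes (1 rise, Gp1bb, and 1 fall with the replicate block) Itga2b fell from 88.3 ± 7.57 to 44.0 ± 4.58 (limma adjusted p = 0.0192), and no longer passed when control replicate 1 or 3 or stimulated replicate 3 was left out (0.085, 0.066 and 0.0862). Exons of Sept5 and Gm49601 on the same strand cover 92.9% of the exonic bases of Gp1bb, so its rise cannot be assigned to that gene. Over all genes tested 13.4% changed, and 26.8% with the replicate block.

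Over all genes tested 13.4% changed, 8.61% upward and 4.75% downward, while with the replicate block 26.8% changed and 14.9% rose. Of the non-leukocyte lists, smooth muscle genes had 5 rises and no fall among 14, with Cald1 from 33683 ± 2837 to 58819 ± 7352 (limma adjusted p = 0.00696), and Acta2 and Tagln also up by limma (adjusted p = 0.0121 and 0.0129). The calls of Acta2 and Tagln were lost without stimulated replicate 3 (limma adjusted p = 0.0661 and 0.0686), that of Acta2 also without control replicate 3 (0.0511) and that of Tagln without control replicate 1 (0.0565). For Tagln, 67.9% of exonic bases lie opposite exons of Gm48529 and Pcsk7, so its level is uncertain where counting ignored strand. The blocked fit had 7 rises among the 14. Fibroblast genes had 1 fall among 14 (2 rises and 2 falls with the replicate block), Pdgfra, from 11353 ± 1950 to 4656 ± 978 (limma adjusted p = 0.00639). Endothelial genes had 2 rises among 15, Flt1 and Eng (limma adjusted p = 0.0127 and 0.0439). Eng did not pass with equal library totals (0.0609), without an intensity trend (0.102) or without control replicate 1, 2 or 3 or stimulated replicate 3 (0.0616 to 0.14). Flt1 did not pass without control replicate 1 or 3 or stimulated replicate 3 (0.0508, 0.0563 and 0.0698). With the replicate block 3 endothelial genes rose (Kdr besides these) and 4 fell, Cldn5, Tek, Robo4 and Egfl7 (limma adjusted p = 0.00289, 0.00165, 0.000848 and 0.0183). None of 14 epithelial genes passed, the median log2 change was -0.61 and 3 were above 0. With the replicate block 1 rose, Sftpc, and 2 fell, Krt18 and Foxj1 (limma adjusted p = 0.0275 and 0.0389). Sftpc was at 826, 19538 and 4401 in controls and 1114, 29469 and 12248 after stimulation (limma adjusted p = 0.756; 0.0196 with the replicate block), and Scgb1a1 at 1494 ± 1102 and 546 ± 414.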
